A study of Mus musculus with 11 samples.

Results

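The cytochrome P450 genes of the mouse lung were taken as every gene of the count table whose symbol starts with Cyp, a family number and a subfamily letter. Cyp51 was left out. The rule found 104 of 24515 genes. Of the 104, 5 were transcribed pseudogenes and 1 a long non-coding RNA by RefSeq's classes. No count was recorded for 12 of them, 59 had counts but fell below the filter on low counts, and 33 were tested.

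The series holds 11 RNA libraries of Gprc5a-/- mice, 6 from lung tumors and 5 from nearby normal lung, taken from 5 animals, so that every group carried the same deletion and there was no wild-type library. All 5 mice had received NNK, a nicotine-derived nitrosamine ketone, by intraperitoneal injection at 50 mg/kg body weight, 3 times per week for 8 weeks, and no library came from a mouse without NNK. The ADC tumors came from mice m335, m372 and m378, the ADN tumors from m335, m368 and m350, and each mouse gave 1 normal lung. The labels do not spell out ADC and ADN. Mouse m335 was killed 4 months after NNK, m368 after 6 months and the other mice after 7 months. Because m335 gave 1 tumor to each group, the 6 tumors stood for 5 animals. Within a group, library values are listed in the mouse order m335, m372, m378 (ADC), m335, m368, m350 (ADN) and m335, m368, m350, m372, m378 (normal lungs).

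Cytochromes P450 are haem enzymes of the endoplasmic reticulum and mitochondria that insert an oxygen atom into their substrates, with electrons supplied by partner reductases. Families CYP1 to CYP4 handle foreign compounds and fatty acids, while most of the others make or break down steroids, bile acids, retinoids and vitamin D. Many tobacco carcinogens are inert until a P450 oxidises them: NNK becomes DNA-reactive through hydroxylation next to its nitroso group, in mouse lung mainly by Cyp2a5, and polycyclic hydrocarbons through Cyp1a1 and Cyp1b1. In normal mouse lung the club cells of the airways are known as a P450-rich epithelium.

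The libraries held 19938807 to 46987580 expected counts, of which the ribosomal RNA gene Rn45s took 7.29% to 19.2%. Gprc5a had 0 to 0.642 CPM (counts scaled to a common library size) in tumors and 0.0567 to 0.559 CPM in normal lungs. The summed alveolar type 2 markers reached 33239 to 130447 CPM in tumors and 39736 to 54022 CPM in normal lungs, so the libraries carried the defining genes of lung. All 8 endothelial markers were lower in tumors (summed 558 to 969.7 CPM, against 2794 to 4549 CPM in normal lungs). The fibroblast list had 4 of 7 genes lower (643 to 1357 CPM in tumors, 2466 to 3653 CPM in normal lungs), the mesothelial list 4 of 4 and the alveolar type 1 list 3 of 6. The macrophage list had 0 of 6 called, and 3 of the 8 alveolar type 2 genes (Sftpa1, Sftpd and Lamp3) were higher in tumors. Over all genes, 7.91% were lower and 3.68% higher in tumors by the same test, which is given below. In bulk tissue, fewer cells of a type and less RNA per cell cannot be told apart. The part of these shifts in the P450 results was not tested.

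P450 transcripts made up 0.0459% to 0.139% of all counts in tumors and 0.112% to 0.303% in normal lungs. Of the 33 tested genes, 9 were lower and 1 was higher in tumors (edgeR quasi-likelihood test with the mouse as a block, Benjamini-Hochberg adjusted p under 0.05 over all 15175 genes tested). Over all genes, 7.91% were lower and 3.68% higher by the same test. Of the called P450 genes, Cyp1a1 and Cyp4b1-ps2 (lower) and Cyp4a12b (higher) passed the filter only through the tissue in which they were high. The median log2 fold change of the 33 was -0.90, against -0.03 over all genes. In 7 genes every tumor lay below every normal lung, and in 1 gene every tumor lay above. Over all genes those patterns held for 7.91% and 3.55%. The genes that fell came from several branches of the superfamily: Cyp1a1, Cyp2b10, Cyp2d22, Cyp2e1 and Cyp2j9 among the drug- and lipid-metabolizing families, Cyp4b1 and its pseudogene Cyp4b1-ps2, and the sterol and retinoid enzymes Cyp27a1 and Cyp26b1.

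**Figure D1:**
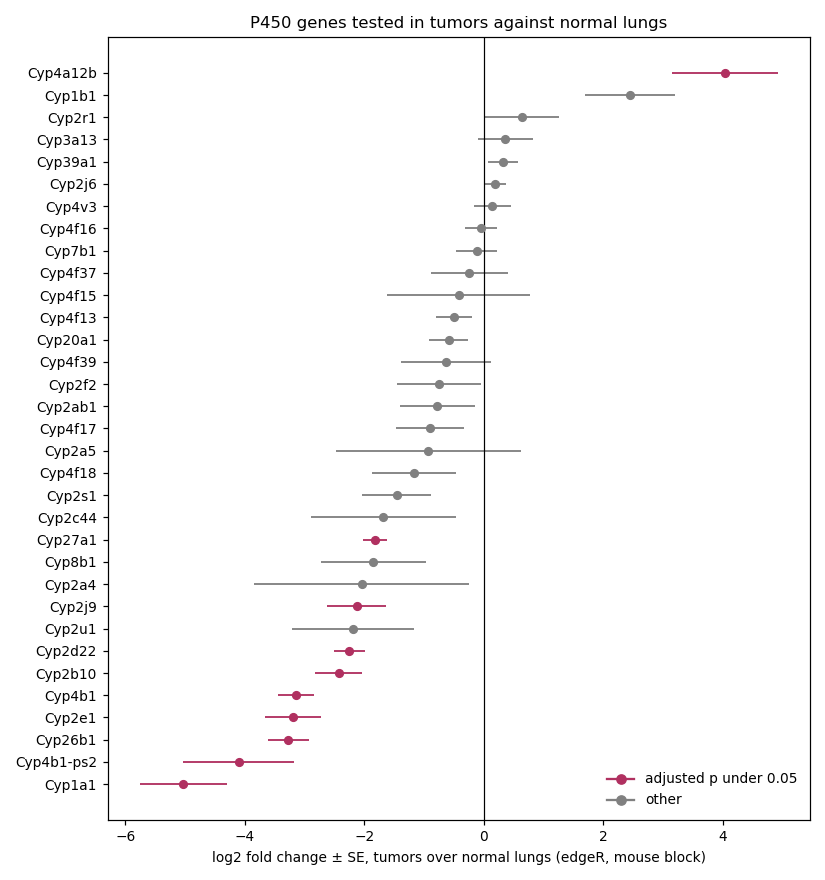
Log2 fold change, tumors over normal lungs, with its standard error for the 33 tested P450 genes, ordered by size. Red points are the 10 genes past an adjusted p of 0.05, of which Cyp4a12b alone lies to the right of 0 and Cyp1a1 lies farthest to the left at -5.03.

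Per kilobase of transcript, which allows levels of different genes to be set side by side, Cyp2f2 had the highest mean of the P450 genes in both tissues, at 235 ± 178 CPM per kilobase in tumors (SD, n = 6) and 305 ± 280.4 in normal lungs (SD, n = 5). Cyp4b1 had the second mean in both, at 25.1 ± 12.7 CPM per kilobase in tumors and 202 ± 42.8 in normal lungs. Cyp2f2 was above Cyp4b1 in 6 of 6 tumors but in 3 of 5 normal lungs. Its normal mean rests on the lung of m372, at 795 CPM per kilobase; without that lung, an alternative chosen after seeing the data, the order turned, with Cyp2f2 at 182 ± 68.9 and Cyp4b1 at 206 ± 48.4 (SD, n = 4). Below them the order changed. Cyp26b1 ranked 14 in tumors, at 3.68 ± 1.51 CPM per kilobase, and 4 in normal lungs, at 40.3 ± 31.8. Cyp1a1 ranked 26 in tumors and 8 in normal lungs, while Cyp2a5 ranked 3 in tumors and 5 in normal lungs. Neighbours in the tumor order such as Cyp2a5 (20.9 ± 18.3), Cyp4v3 (19.2 ± 8.25) and Cyp2b10 (18.2 ± 10.8) did not differ beyond their spread. Cyp2f2 supplied 11.1% to 66.3% of all P450 counts in a tumor and 15.1% to 54.1% in a normal lung.

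Of the 9 P450s listed as activators of carcinogens, 8 were tested, and 3 fell in tumors (Cyp1a1, Cyp2b10 and Cyp2e1), also when ADC and ADN tumors were each set against the normal lungs. Over all tumors these 3 calls held in 22 of 22 alternatives, but those within a tumor class did not. In ADC tumors Cyp1a1 lost its call in 12 of 22 alternatives (adjusted p up to 0.142), Cyp2e1 in 13 (up to 0.119) and Cyp2b10 in 3 (up to 0.0701). In ADN tumors Cyp2b10 lost its call in 16 (up to 0.167), Cyp1a1 in 14 (up to 0.249) and Cyp2e1 in 8 (up to 0.155). None rose past the threshold. Of all genes tested, 7.91% were lower and 3.68% higher in tumors. The median log2 fold change of the 8 was -1.75, against -0.03 over all genes.

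Cyp1a1 (chromosome 9, 57687928 to 57703824, mm10), the main inducible oxidase of polycyclic hydrocarbons and the classic target of the aryl hydrocarbon receptor AHR, had the largest fold decrease of the 33. It stood at 0.642, 7.54 and 0.0395 CPM in ADC tumors, 0.569, 3.0 and 0.0357 CPM in ADN tumors and 30.7, 11.2, 16.1, 159 and 6.48 CPM in normal lungs. Each tumor lay below the normal lung of its own mouse, but the ADC tumor of m372 at 7.54 CPM exceeded the normal lung of m378 at 6.48 CPM. The log2 fold change was -5.03 ± 0.73 (SE, adjusted p = 0.00323). It was -5.77 without the ADN tumor of m368 or that mouse's normal lung, and -4.41 without mouse m335. All 22 alternative fits kept the call, with adjusted p of 0.0266 or less. The ADC tumor of m378 and the ADN tumor of m350 had 1 count each. Too few tumors reached the filter's cut-off, so Cyp1a1 passed only through the normal lungs in which it was high. Its call is therefore a description.

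Cyp1b1 (chromosome 17, 79706953 to 79715041, mm10), the other main activator of polycyclic hydrocarbons and an enzyme known from mesenchymal cells, had the opposite sign. It stood at 22.3, 6.78 and 129 CPM in ADC tumors, 18.9, 52.0 and 11.6 CPM in ADN tumors and 2.69, 6.4, 3.65, 13.3 and 4.15 CPM in normal lungs. The tumor was above the normal lung of its own mouse in 5 of 6 cases, the exception being m372, whose normal lung was the highest of the 5. The log2 fold change of 2.45 ± 0.76 missed the threshold (adjusted p = 0.0739). Without mouse m372 it was 3.11 ± 0.50 (adjusted p = 0.0123). The fit without the mouse block gave 2.74 ± 0.75 (adjusted p = 0.0293), and without mouse m378 the log2 fold change was 1.84.

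The start regions of these AHR targets are shown because the fold changes of the genes had opposite signs, with that of Cyp1b1 short of the threshold, and because each window holds the core of the AHR response element. They run from 250 bases before to 50 bases after the annotated start, from RefSeq on GRCm38.p6. The motif GCGTG, searched on both strands, is in capitals (as CACGC where it lies on the other strand), with TATAAA, searched on the coding strand, also in capitals.
Cyp1a1: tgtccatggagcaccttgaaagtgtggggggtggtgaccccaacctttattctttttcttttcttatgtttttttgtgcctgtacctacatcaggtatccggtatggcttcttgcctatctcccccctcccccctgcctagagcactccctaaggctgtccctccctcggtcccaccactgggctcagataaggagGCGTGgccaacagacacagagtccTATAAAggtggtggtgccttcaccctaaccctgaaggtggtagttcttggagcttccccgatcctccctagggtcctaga
Cyp1b1: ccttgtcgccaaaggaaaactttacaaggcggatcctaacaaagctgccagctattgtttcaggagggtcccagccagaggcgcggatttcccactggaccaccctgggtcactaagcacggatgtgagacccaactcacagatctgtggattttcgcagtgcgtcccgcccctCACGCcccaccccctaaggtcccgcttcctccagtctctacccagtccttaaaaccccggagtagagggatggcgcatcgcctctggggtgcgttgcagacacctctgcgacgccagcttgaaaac
The Cyp1a1 window is chr9:57697363-57697662 on the plus strand, with the receptor motif 54 bases before the start and TATAAA between the motif and the start. The Cyp1b1 window is chr17:79715012-79715311 on the minus strand, with the motif 76 bases before the start and no TATAAA in the window. The motif GCGTG occurred in 32.4% of 32851 promoter windows and in 17 of 87 windows of P450 genes (19.5%, from 77 genes with a match by symbol). A match describes letters in this window and not a bound site.

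Cyp2e1 (chromosome 7, 140763832 to 140774977, mm10), which oxidises small nitrosamines and solvents, stood at 1.45, 1.41 and 0.355 CPM in ADC tumors, 1.24, 4.47 and 0.571 CPM in ADN tumors and 3.77, 41.2, 5.29, 16.2 and 11.4 CPM in normal lungs. Every tumor lay below its own normal lung, with 1 overlap between the groups, the ADN tumor of m368 over the normal lung of m335. Tumors over normal lungs gave a log2 fold change of -3.20 ± 0.47 (adjusted p = 0.00343). Adipocyte markers were also lower in tumors: their sum was 1.05 to 7.5 CPM in tumors and 8.93 to 116 CPM in normal lungs. The normal lung of m368 was the highest in both the adipocyte sum and Cyp2e1, and that of m335 the lowest in both. Among tumors the ADN tumor of m350 had the highest adipocyte sum, 7.5 CPM, with 0.571 CPM of Cyp2e1. The ADC tumor of m335 had the lowest sum, 1.05 CPM, with 1.45 CPM of Cyp2e1. The ADN tumor of m368 paired a sum of 6.98 CPM with the highest Cyp2e1 of the tumors, 4.47 CPM. Of the 4 adipocyte markers, 3 were tested and Cidec alone fell (7.91% of all genes did). The defining gene Adipoq was at 0 in 4 of the 6 tumors and in the normal lung of m335, where Cyp2e1 still had 3.77 CPM. The part of adipocytes in the result was not tested.

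Cyp2b10 (chromosome 7, 25897658 to 25926624, mm10), a phenobarbital-inducible enzyme that accepts many drugs and nitrosamines, separated the groups. It had 27.6, 14.2 and 19.4 CPM in ADC tumors, 26.6, 63.0 and 58.6 CPM in ADN tumors and 209, 149, 115, 135 and 209 CPM in normal lungs. All 6 tumors were below all 5 normal lungs. edgeR estimated the log2 fold change at -2.43 ± 0.39 (adjusted p = 0.0052). Its transcript shares 9.69% of its 50-base windows with other genes, mainly Cyp2b13.

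**Figure D2:**
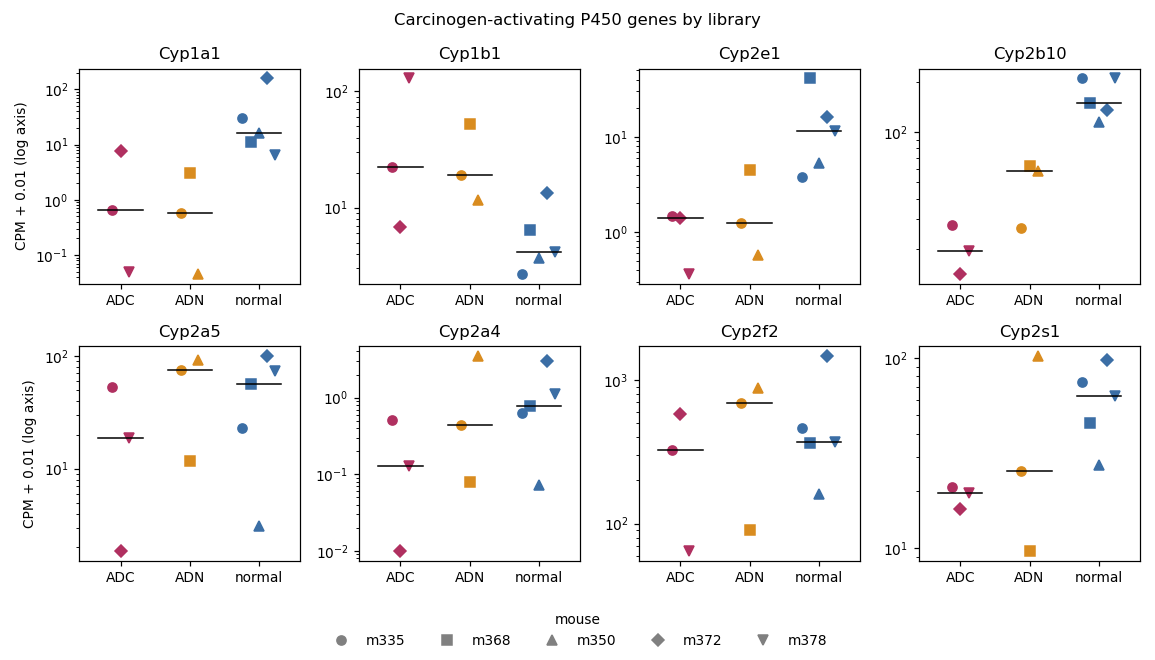
CPM (log axis, 0.01 added) in each library for the 8 tested P450 genes of the carcinogen list; columns are ADC tumors, ADN tumors and normal lungs, the marker shape gives the mouse, and the horizontal line is the group median. Cyp2b10 shows no overlap between tumors and normal lungs, whereas Cyp2a5, Cyp2a4 and Cyp2f2 overlap over most of their range.

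Cyp2a5 (chromosome 7, 26835339 to 26843264, mm10), the mouse enzyme best known for activating NNK, did not pass the test. It stood at 53.1, 1.85 and 18.6 CPM in ADC tumors, 75.1, 11.6 and 92.1 CPM in ADN tumors and 23, 56.3, 3.06, 101 and 74.0 CPM in normal lungs. The groups covered the same range, and the tumor was above its own normal lung in 3 of 6 cases. In m350 the ADN tumor had 92.1 CPM against 3.06 CPM in the normal lung, and in m372 the ADC tumor had 1.85 CPM against 101 CPM. The log2 fold change was -0.93 ± 1.55 (adjusted p = 0.764), with a 95% interval from -4.46 to 2.6, so a change within that range could not be told from 0. Leaving out mouse m372 turned its sign to 0.30 ± 1.34 (adjusted p = 0.929).

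Cyp2a4, a close copy of Cyp2a5 that hydroxylates testosterone, had at most 3.53 CPM in tumors and at most 3.0 CPM in normal lungs. Its log2 fold change was -2.04 ± 1.80 (adjusted p = 0.535). Of the 50-base windows of Cyp2a5, 31% recur in Cyp2a4, so their counts could be split between them. Cyp1a2, the other AHR-driven oxidase of its subfamily, had 0 counts in every tumor and 0 to 2 counts in a normal lung, 5 in all, and was not tested.

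Cyp2f2 (chromosome 7, 27119955 to 27133660, mm10), which activates naphthalene and styrene and marks club cells, had 325, 577 and 64.5 CPM in ADC tumors, 695, 90.7 and 875 CPM in ADN tumors and 465, 364, 159.8, 1483 and 371 CPM in normal lungs. Tumors and normal lungs overlapped, and 4 of 6 tumors were below their own normal lung. Tumors over normal lungs gave a log2 fold change of -0.75 ± 0.71 (adjusted p = 0.562). The summed club markers, which leave Cyp2f2 out, were 1154, 1816 and 1519 CPM in ADC tumors, 861, 799.7 and 11001 CPM in ADN tumors and 2605 to 22284 CPM in normal lungs. The normal lung of m372 was the highest of the 11 in both measures, but the ADN tumor of m335 paired 695 CPM of Cyp2f2 with 861 CPM of club markers. Scgb1a1, the defining secretory protein of club cells, had 328 CPM in that tumor and 5365 CPM in the normal lung of the same mouse. Scgb3a1 (59.2 against 4.45 CPM), Reg3g (90.4 against 1.81 CPM) and Gabrp (19.1 against 9.01 CPM) were higher in that tumor, and the other club genes lower. Scgb1a1 made up most of the highest sums, with 9475 CPM in the ADN tumor of m350 and 20249 CPM in the normal lung of m372. Of the 8 club genes, Aldh1a1 alone was called lower in tumors (7.91% of all genes were) and 0 were called higher. The part of club cells in these values was not tested.

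**Figure D3:**
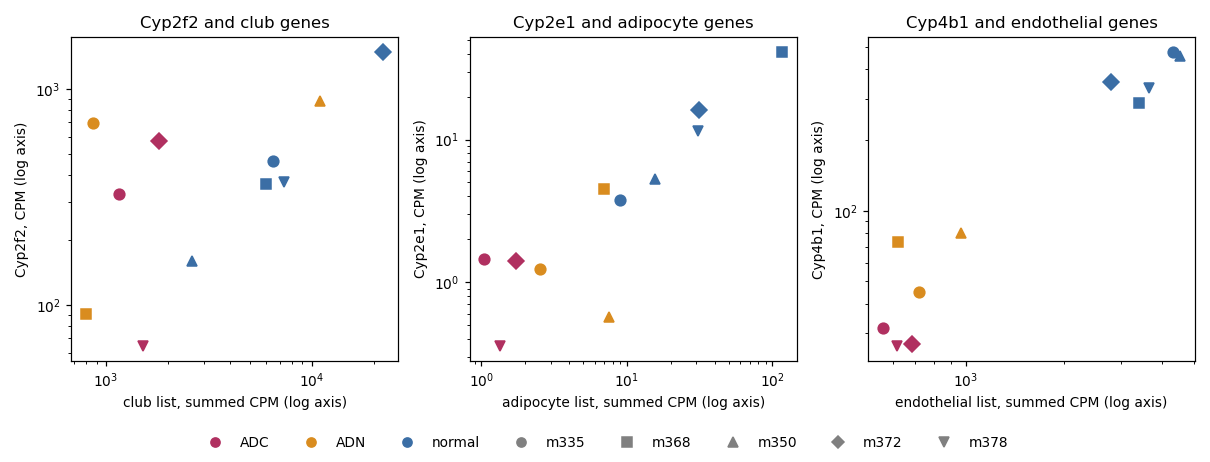
Level of Cyp2f2, Cyp2e1 and Cyp4b1 (vertical, CPM) against the summed CPM of club, adipocyte and endothelial marker genes (horizontal) in the 11 libraries, all axes logarithmic; colour gives the group and shape the mouse. The ADN tumor of m335 (orange circle) sits at 695 CPM of Cyp2f2 with a club sum of 861 CPM, and Cyp4b1 is low in the 6 tumors, where the endothelial sum is also low.

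Cyp2s1, an epithelial enzyme that acts on hydrocarbon metabolites, had 20.9, 16.0 and 19.4 CPM in ADC tumors, 25.5, 9.67 and 103 CPM in ADN tumors and 74.5, 45.7, 27.3, 98 and 62.8 CPM in normal lungs. The ADN tumor of m350 stood above all normal lungs and the other 5 tumors below them all. The log2 fold change of -1.46 ± 0.57 missed the threshold (adjusted p = 0.143). Without that tumor it was -2.03 ± 0.22 (adjusted p = 0.00406). The same tumor had the highest Cyp2f2, Cyp2a5 and Cyp2a4 of the 6 and the highest club marker sum, 11001 CPM. Cyp2f2, Cyp2a4, Cyp2a5, Cyp2b10 and Cyp2s1 are neighbours in a cluster of P450 genes on chromosome 7. Of 13 cluster genes 5 were tested and Cyp2b10 alone fell, where 7.91% of all genes were lower in tumors. In the annotation, Cyp2f2 overlaps exons of Gm15883 and Cyp2s1 those of Gm26707 on the opposite strand, by 274 and 260 bases, and the strand setting of the counting is not given in the sources used here.

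Among 32 genes listed under fatty acid and eicosanoid metabolism (all Cyp4 and Cyp2j genes and Cyp2u1), 14 were tested, 3 fell and 1 rose. The list includes the pseudogenes Cyp4b1-ps2, which is among those that fell, and Cyp4f41-ps, and the non-coding Cyp4x1os. By the same test 7.91% of all genes were lower and 3.68% higher. The median log2 fold change was -0.56, against -0.03 over all genes. Cyp4b1 (chromosome 4, 115624728 to 115647705, mm10), a lung enzyme that hydroxylates the ends of fatty acids and activates furan toxins, had the smallest adjusted p of the 33. It stood at 31.8, 27.0 and 26.5 CPM in ADC tumors, 45.0, 73.9 and 80.3 CPM in ADN tumors and 475, 289, 458, 352 and 334 CPM in normal lungs. The groups were far apart, and the 3 ADC tumors were also below the 3 ADN tumors. edgeR estimated the log2 fold change at -3.14 ± 0.30 (adjusted p = 0.000823). The endothelial, fibroblast, mesothelial, alveolar type 1, and smooth muscle and pericyte marker sums were all lower in the same tumors. The club sum, of a cell type from which Cyp4b1 is known, was 799.7 to 11001 CPM in tumors and 2605 to 22284 CPM in normal lungs. Its highest tumor value was in the ADN tumor of m350, where Cyp4b1 had 80.3 CPM. The part of these cell types in the result was not tested.

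Cyp4b1-ps2, a pseudogene next to Cyp4b1, had 15 counts over the 6 tumors and 219 over the 5 normal lungs, a ratio of 0.0582 with an exact 95% interval of 0.032 to 0.0981 for counting error only. Its log2 fold change was -4.10 ± 0.93 (adjusted p = 0.0232), and 10 of 22 alternative fits lost the call, with adjusted p up to 0.1, among them those without mouse m350, m372 or m378 and without the normal lung of m335. With at most 7 counts in a tumor, Cyp4b1-ps2 passed the filter only through the normal lungs in which it was high, so its call is a description. Of its 50-base windows 34.2% recur in Cyp4b1, so some of its reads may belong to its neighbour. Cyp2j9, an enzyme of arachidonic acid metabolism known from mouse brain, had 1.12, 1.08 and 0.869 CPM in ADC tumors, 0.971, 0.419 and 0.964 CPM in ADN tumors and 2.01, 5.07, 5.54, 4.09 and 3.5 CPM in normal lungs. No tumor reached a normal lung. Its log2 fold change was -2.13 ± 0.49 (adjusted p = 0.0241), lost in 11 of 22 alternative fits with adjusted p up to 0.0928, among them those without mouse m350, m368, m372 or m378.

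Cyp4a12b (chromosome 4, 115411624 to 115439034, mm10), a hydroxylase of arachidonic acid best known from male mouse kidney, was the P450 that rose. It had 111, 70 and 16 counts in ADC tumors, 216, 60 and 6 counts in ADN tumors and 1, 6, 2, 3 and 1 counts in normal lungs. On the CPM scale all 6 tumors (0.214 to 7.23) lay above all 5 normal lungs (0.0283 to 0.186). The log2 fold change was 4.04 ± 0.89 (adjusted p = 0.0203). With at most 6 counts in a normal lung, the gene passed the filter only through the tumors in which it was high, so its call is a description. The call was lost without the normal lung or both libraries of m372 or m378 (adjusted p up to 0.0766), and in 6 further alternatives, among them those without the ADC tumor or the ADN tumor of m335, the gene fell below the filter. Without the normal lung of m335 it was 3.28, and without the mouse block 4.85. Its close copy Cyp4a12a, which holds 49.4% of its 50-base windows and was picked out after its values were seen, had 76 counts in tumors, 60 of them in the ADC tumor of m372, and 6 in normal lungs.

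Cyp4f18, which inactivates leukotriene B4 in neutrophils, had 16.7, 2.35 and 7.15 CPM in ADC tumors, 1.71, 1.61 and 4.82 CPM in ADN tumors and 5.53, 11.6, 17.9, 5.63 and 12.2 CPM in normal lungs. The 3 ADN tumors were below all normal lungs, whereas the ADC tumor of m335 was higher than 4 of them. Cyp4f18 fell in ADN tumors (log2 fold change -2.52 ± 0.58, adjusted p = 0.0386) but not over all tumors (-1.17 ± 0.70, adjusted p = 0.336). The call in ADN tumors was lost in 11 of 22 alternatives, with adjusted p up to 0.229. Its exons overlap Zfp961 on the opposite strand by 181 bases. Cyp4v3, a fatty acid hydroxylase whose human counterpart is mutated in a crystalline retinal dystrophy, had 72.9 ± 31.4 CPM in tumors and 67.4 ± 18.8 CPM in normal lungs (SD, n = 6 and 5). Its log2 fold change was 0.14 ± 0.31 (adjusted p = 0.828; -0.04 when scaled by library totals).

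Of the 35 Cyp2c, Cyp2d and Cyp3a genes, the main drug-metabolizing families of mouse liver, 27 had counts and 3 were tested: Cyp2d22, Cyp2c44 and Cyp3a13. Cyp2d22 (chromosome 15, 82370527 to 82380260, mm10), a mouse relative of the human enzyme that clears many psychiatric drugs, had 4.29, 9.66 and 6.12 CPM in ADC tumors, 6.39, 10.6 and 10.7 CPM in ADN tumors and 49.4, 33.6, 41.4, 36.0 and 26.6 CPM in normal lungs. The highest tumor was well below the lowest normal lung. Tumors over normal lungs gave a log2 fold change of -2.25 ± 0.26 (adjusted p = 0.00123). Cyp3a13 and Cyp2c44 did not pass (log2 fold changes 0.36 ± 0.46 and -1.68 ± 1.22, adjusted p = 0.683 and 0.434).

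A group of 4 neighbouring Cyp2c genes on chromosome 19, picked out after their values were seen, fell below the filter but had counts in tumors and almost none in normal lungs. Cyp2c40, which oxidises arachidonic acid, had 0, 12 and 870 counts in ADC tumors, 150, 182 and 123 counts in ADN tumors and 0 in all 5 normal lungs. All 3 ADN tumors and the ADC tumor of m378 were high, and the ADC tumor of m335 had none. Against a floor of 3 counts over the normal group, its level was at least 379-fold higher in tumors, and at least 153-fold higher without the ADC tumor of m378. Cyp2c69 had 0, 3 and 165 counts in ADC tumors, 17, 22 and 7 in ADN tumors and 0 in all normal lungs. The same tumors thus carried it, at least 60.6-fold above the floor (16.1-fold without the ADC tumor of m378). Cyp2c68 had 89 counts in tumors and 1 in normal lungs, and Cyp2c67 had 21, all in the ADC tumor of m378, and 2 in normal lungs.

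The 4 genes together had 1661 counts in tumors and 3 in normal lungs, a ratio of 470 with an exact 95% interval of 161 to 2280 (counting error only). The ADC tumor of m378 held 1115 of these counts, and without it the ratio was 179 (61 to 871). Of the 50-base windows of Cyp2c40, 72.1% recur in transcripts of other genes: 42.1% in Cyp2c69, 38.4% in Cyp2c67 and 34% in Cyp2c68. The split of the reads between the 4 genes is therefore uncertain. Their sum does not depend on that split, but reads shared with genes outside the 4 were not separated out. With no filter on low counts, Cyp2c40, picked out after its counts were seen, had adjusted p = 0.146 over all tumors, 0.00158 in ADN and 0.00865 in ADC tumors against normal lungs (edgeR, same model). Because the gene was picked for its absence from normal lungs, these values describe that pattern and are no test of it. The ADC tumors had 0, 12 and 870 counts, so the ADC value does not speak for the 3 tumors alike.

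The promoter windows of the 4 genes are shown because all of them hold the same motif. Each runs on the minus strand of chromosome 19 (RefSeq, GRCm38.p6). Capitals mark CAAAGTCCA, a binding motif of the liver and gut receptor HNF4 searched on both strands, and TATAAA on the coding strand; in Cyp2c68 the capitals CACGC mark GCGTG on the other strand. Both HNF4 and TATAAA were chosen after the counts were seen.
Cyp2c40: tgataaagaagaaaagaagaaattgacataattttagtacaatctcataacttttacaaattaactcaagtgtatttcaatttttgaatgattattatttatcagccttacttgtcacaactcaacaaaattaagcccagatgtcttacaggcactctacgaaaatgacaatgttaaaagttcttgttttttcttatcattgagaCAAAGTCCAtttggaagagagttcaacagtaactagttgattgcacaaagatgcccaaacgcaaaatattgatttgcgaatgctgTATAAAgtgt
Cyp2c69: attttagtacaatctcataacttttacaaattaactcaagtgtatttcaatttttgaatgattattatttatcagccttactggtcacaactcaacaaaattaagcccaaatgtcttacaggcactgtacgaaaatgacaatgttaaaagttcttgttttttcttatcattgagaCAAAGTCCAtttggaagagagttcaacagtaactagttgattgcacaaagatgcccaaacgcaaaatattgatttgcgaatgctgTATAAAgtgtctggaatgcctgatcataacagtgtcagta
Cyp2c68: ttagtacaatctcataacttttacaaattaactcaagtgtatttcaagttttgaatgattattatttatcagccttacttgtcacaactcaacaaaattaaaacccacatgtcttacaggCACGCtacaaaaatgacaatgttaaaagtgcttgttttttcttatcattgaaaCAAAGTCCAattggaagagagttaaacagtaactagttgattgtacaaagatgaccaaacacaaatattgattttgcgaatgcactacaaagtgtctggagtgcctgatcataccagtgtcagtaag
Cyp2c67: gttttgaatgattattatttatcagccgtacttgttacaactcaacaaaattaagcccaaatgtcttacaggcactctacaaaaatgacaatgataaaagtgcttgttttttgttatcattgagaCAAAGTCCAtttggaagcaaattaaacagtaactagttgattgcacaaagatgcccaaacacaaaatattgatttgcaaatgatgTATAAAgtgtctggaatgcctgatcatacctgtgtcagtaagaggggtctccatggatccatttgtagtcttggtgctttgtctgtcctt
The windows are chr19:39812765-39813064, chr19:39886720-39887019, chr19:39741052-39741351 and chr19:39648993-39649292 in that order. CAAAGTCCA begins 45 bases before the annotated start of Cyp2c40, 75 before that of Cyp2c69, 77 before that of Cyp2c68 and 125 before that of Cyp2c67. It occurred in 0.475% of 32851 promoter windows and in 11 of the 87 P450 windows (12.6%). Over the whole alignment, gaps included, the Cyp2c68 and Cyp2c69 windows were identical at 91.1%, Cyp2c40 and Cyp2c69 at 80.9%, and Cyp2c40 and Cyp2c68 at 75.1%. The Cyp2c67 window had 66.6% with Cyp2c69, 65.9% with Cyp2c68 and 54.2% with Cyp2c40. The windows are offset, since the motif lies at different distances from the annotated starts. These shares count the unmatched ends as differences and understate the likeness where the windows overlap. The 47.1% of the Cyp2a4 window, from another subfamily, with Cyp2c40 is therefore no yardstick for them. The motif in these 4 like windows is not an independent match in each. TATAAA occurred in 8.32% of all windows and 29.9% of P450 windows.

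Hnf4a, the gene of that receptor, had 0, 0.0923 and 0.276 CPM in ADC tumors, 10.7, 22.9 and 4.5 CPM in ADN tumors and 0.186 to 1.04 CPM in normal lungs. It rose in ADN tumors against normal lungs (adjusted p = 0.00848). The ADC tumor of m378, with the most Cyp2c40 counts, had 0.276 CPM of Hnf4a, within the range of normal lungs. The hepatocyte list summed to 3.58 to 10.7 CPM in tumors and 1.58 to 3.22 CPM in normal lungs. Alb was higher in tumors (adjusted p = 0.044), with 0.0338 CPM in the ADC tumor of m335 and 2.81 to 10 CPM in the other 5 tumors. Ttr was at 0 in all 6 tumors. The part of these genes in the Cyp2c counts was not tested.

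**Figure D4:**
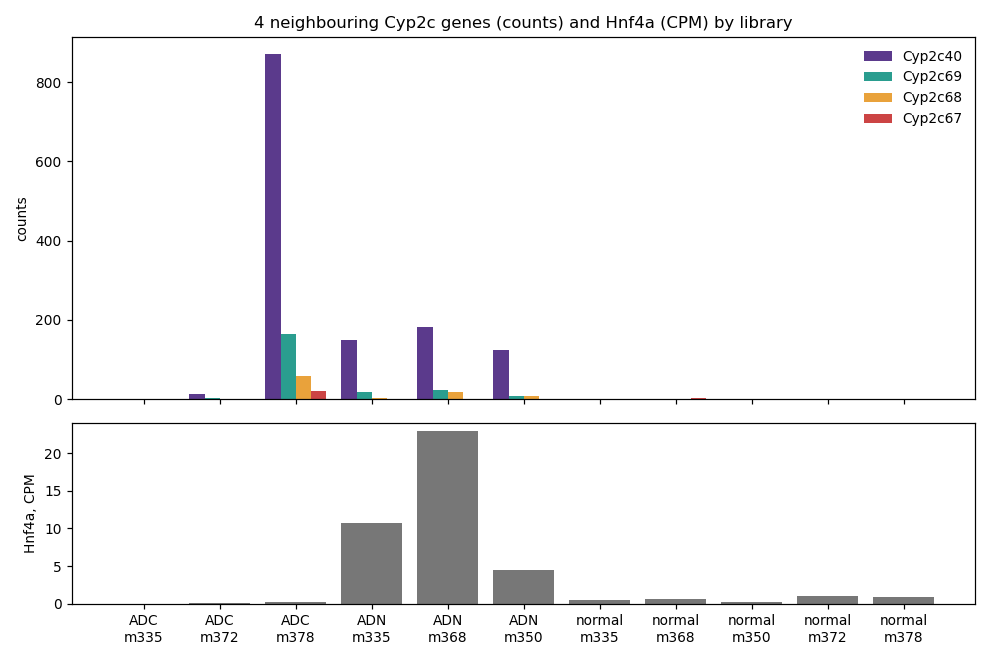
Counts of Cyp2c40, Cyp2c69, Cyp2c68 and Cyp2c67 (upper panel) and CPM of Hnf4a (lower panel) in the 3 ADC tumors, 3 ADN tumors and 5 normal lungs. The ADC tumor of m378 has 870 counts of Cyp2c40 with 0.276 CPM of Hnf4a, while the 3 ADN tumors have both.

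Of the 3 enzymes that degrade retinoic acid, Cyp26b1 (chromosome 6, 84571414 to 84593908, mm10) was tested. It stood at 16.7, 18.8 and 16.9 CPM in ADC tumors, 17.2, 19.6 and 2.75 CPM in ADN tumors and 358, 81.9, 15.2, 157 and 226 CPM in normal lungs. Of the tumors, 5 fell between 16.7 and 19.6 CPM, a far narrower range than that of the normal lungs. Both low values belonged to m350, whose normal lung was below those 5 tumors. edgeR estimated the log2 fold change at -3.27 ± 0.35 (adjusted p = 0.000968). Cyp26a1 had 8 counts and Cyp26c1 2 counts in all libraries. Of the retinoic acid receptor genes, Rara was lower in tumors (log2 fold change -0.91 ± 0.17, adjusted p = 0.0115).

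In the cholesterol and bile acid list 4 of 6 genes were tested and Cyp27a1 (chromosome 1, 74713535 to 74737897, mm10), the mitochondrial sterol hydroxylase, fell. It had 5.55, 3.44 and 4.3 CPM in ADC tumors, 5.72, 6.77 and 4.89 CPM in ADN tumors and 20.1, 16.1, 19.7, 13.4 and 17.7 CPM in normal lungs. The groups did not overlap and both were tight. The log2 fold change was -1.82 ± 0.20 (edgeR, adjusted p = 0.00104). Of all genes, 7.91% were lower in tumors. Cyp8b1, the hydroxylase that makes cholic acid, also lay lower in every tumor (0 to 1.61 CPM) than in every normal lung (1.68 to 3.94 CPM), but did not pass (log2 fold change -1.85 ± 0.88, adjusted p = 0.221). The oxysterol hydroxylases Cyp7b1 and Cyp39a1 had log2 fold changes of -0.12 ± 0.34 and 0.32 ± 0.25 (adjusted p = 0.868 and 0.46). Of the vitamin D enzymes, Cyp2r1, a hydroxylase that starts vitamin D activation, was tested and did not pass (0.64 ± 0.62, adjusted p = 0.575).

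None of the 6 genes of steroid synthesis passed the filter. Cyp21a1 and Cyp11a1 were picked out after their values were seen. Cyp21a1, the adrenal steroid hydroxylase, had 13, 3 and 0 counts in ADC tumors, 56, 17 and 88 in ADN tumors and 9 counts over the 5 normal lungs. The ADN tumors held most of them. The ratio of tumors to normal lungs was 16.7 (exact 95% interval 8.6 to 37.1), and 9.9 without the ADN tumor of m350. Of its 50-base windows 23.7% recur in the pseudogene Cyp21a2-ps. Cyp11a1, which starts steroid synthesis from cholesterol, had 3 counts over the 6 tumors and 45, 1, 9, 13 and 26 counts in normal lungs.

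P450 enzymes need electron donors and haem. Of 11 such partner genes, Hmox1, which degrades haem, rose (log2 fold change 1.08 ± 0.20, adjusted p = 0.0092) and Pgrmc1, a haem-binding P450 partner, fell (-1.20 ± 0.25, adjusted p = 0.0165). Por, the reductase that serves all microsomal P450s, had 173 ± 50.9 CPM in tumors and 241 ± 88.0 CPM in normal lungs (SD) and did not pass (-0.48 ± 0.28, adjusted p = 0.319). In the AHR list 2 of 10 tested genes rose, Nfe2l2, the oxidative stress factor (0.88 ± 0.20, adjusted p = 0.0253), and Hsp90ab1, a chaperone of the receptor (0.75 ± 0.19, adjusted p = 0.038). Ahr itself had 46.5 ± 17.3 CPM in tumors and 59.0 ± 15.4 CPM in normal lungs (SD), a log2 fold change of -0.42 ± 0.27 (adjusted p = 0.371). Tiparp, another AHR target, had -0.20 ± 0.19 (adjusted p = 0.55), and Nqo1, a quinone reductase driven by AHR and Nfe2l2, had -1.35 ± 0.42 (adjusted p = 0.0754). Aldh3a1 and Aldh1a3 of the same list had -0.04 ± 0.84 and -0.88 ± 0.94 (edgeR, adjusted p = 0.984 and 0.617). Ahrr, below the filter, had 72 counts in tumors and 34 in normal lungs, with 1.62 CPM in the ADC tumor of m335 and at most 0.321 CPM elsewhere. Tiparp, Nqo1, Aldh3a1, Aldh1a3 and Ahrr are named outside the rule. The normal lung of m372, which had the highest Cyp1a1, also had the highest Nqo1, at 12.9 CPM against 2.69 to 3.16 CPM in the other four. Of 9 nuclear receptor genes tested, Rara was lower in tumors, and Hnf4a and the vitamin D receptor Vdr were higher in ADN tumors (edgeR, Vdr adjusted p = 0.0184). Over all genes, 7.91% were lower and 3.68% higher in tumors, and 2.68% were higher in ADN tumors. In lists of 9 to 11 genes, so few calls are values of single genes and no result about a list.

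Of the 3 enzymes of the P450 fold whose symbols the rule does not match, 2 were lower in tumors. Over all genes the share was 7.91%. Ptgis, the prostacyclin synthase of blood vessels, fell (log2 fold change -2.84 ± 0.36, adjusted p = 0.00181), beside the lower endothelial markers. Cyp51, the demethylase of cholesterol synthesis, also fell (-1.38 ± 0.25, adjusted p = 0.0091). Tbxas1, the thromboxane synthase, did not pass (-0.43 ± 0.42, adjusted p = 0.577).

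Against the same normal lungs, 8 P450 genes were lower in ADC tumors and 8 in ADN tumors, and 0 were higher in either (edgeR). Of all genes 4.99% passed for ADC (3.98% lower, 1.01% higher) and 7.53% for ADN (4.84% lower, 2.68% higher). DESeq2 called 2 P450 genes higher in each, Cyp1b1 and Cyp4a12b. Both comparisons named Cyp1a1, Cyp26b1, Cyp27a1, Cyp2b10, Cyp2d22, Cyp2e1 and Cyp4b1. They share the normal lungs, so this overlap is not independent. For ADN the number of lower P450 genes was 0 without the ADN tumor of m335, as it was for all genes. It was 2 without either library of m350, 4 without either library of m368 and 5 without either library of m378. For ADC it was 1 without either library of m378, 4 without the normal lung of m372, 5 without that mouse's tumor and 5 without the ADN tumor of m335.

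The direct comparison of ADC with ADN tumors called 0 P450 genes and 0 of all genes (0%), with 4 P450 genes at an unadjusted p under 0.05 and 0 by DESeq2. Over all genes 992 had such a p and DESeq2 called 125. Cyp4v3 had 81.1, 115 and 101 CPM in ADC tumors and 38.2, 43.2 and 58.7 CPM in ADN tumors. Every ADC tumor was above every ADN tumor. Its log2 fold change, ADC over ADN, was 1.18 ± 0.32 (adjusted p = 0.706), with a 95% interval from 0.44 to 1.91. Cyp4b1 ran the other way, at -1.0 ± 0.37 (adjusted p = 0.744, interval -1.86 to -0.14). Cyp4f18 had 2.43 ± 0.67 (adjusted p = 0.706), and the 4th, Cyp4f15, a Cyp4f fatty acid hydroxylase, had 0.217 ± 0.071 CPM in ADC and 0.724 ± 0.727 CPM in ADN tumors (SD, n = 3 each). With 3 tumors a group, neither a difference nor its absence was established for these genes.

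Set against the normal lung of its own mouse, on log2(CPM + 0.5), every tumor was lower for Cyp1a1, Cyp4b1, Cyp26b1, Cyp2b10, Cyp2e1, Cyp2d22, Cyp4b1-ps2, Cyp27a1 and Cyp2j9. For Cyp27a1 the difference lay between -1.92 and -1.19 in the 6 tumors, the narrowest of these. For Cyp1a1 it was -4.77, -4.31 and -3.69 in ADC and -4.87, -1.74 and -4.96 in ADN tumors. The ADN tumor of m368 thus stood apart from the other five. Both tumors of m335 were alike for Cyp26b1, at -4.38 in the ADC and -4.34 in the ADN tumor, and for Cyp2b10, at -2.90 and -2.95. They differed for Cyp4f18, at 1.51 and -1.45. Months after NNK cannot be told apart from the mouse: m335 alone was killed at 4 months and m368 alone at 6.

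**Figure D5:**
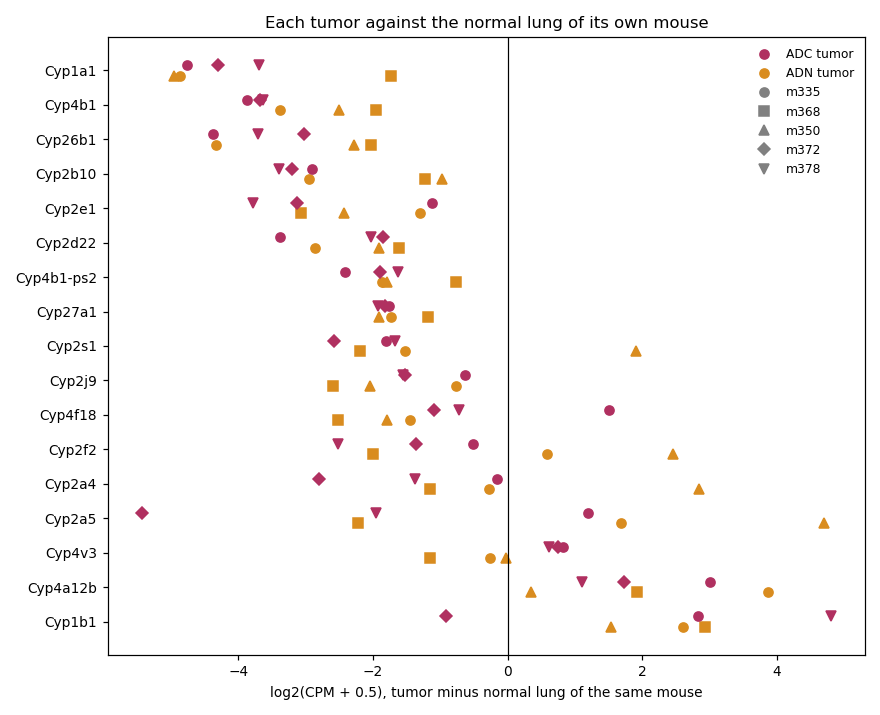
Difference in log2(CPM + 0.5) between each tumor and the normal lung of the same mouse for the 17 named P450 genes, ordered by the median; colour gives ADC or ADN and shape the mouse. All 6 points lie left of 0 for the upper genes such as Cyp1a1 and Cyp4b1, while Cyp2a5 runs from -5.43 to 4.70.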

How the data were processed

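Per the labels, poly-A RNA of integrity number 7 or more was prepared with an Ion Total RNA-Seq kit and read on an Ion Proton machine, in 11 lung samples. The processing notes of the submitters list STAR 2.4.1d, Bowtie2 2.1.0, Partek and mm10 without roles. Which annotation and strand setting served for counting is not given in the sources used here. The deposited values are expected counts per RefSeq transcript (36285 rows), not normalized. They were summed by gene symbol and rounded. Gene sums were whole within 0.01 in 78.4% to 86.2% of genes per library.

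Genes were filtered with filterByExpr (15175 kept), scaled by TMM and tested two-sided with edgeR 4.0.16 (R 4.3.3; robust quasi-likelihood, mouse as a fixed block, Benjamini-Hochberg over all genes, threshold 0.05). ADC and ADN contrasts came from a 3-group fit of all libraries. The script was tested on simulated data. DESeq2 1.42.0, other scalings, no filter, no block and leaving out each library or mouse were alternatives. The pairs come from the labels' mouse numbers, since a tumor and its normal lung are from 1 animal. The correlation of a tumor's deviation from its group with that of its own normal lung was -0.0444 to 0.254, and it was the closest normal lung for 2 of 6 tumors. Intervals on count ratios are exact and cover counting error only.

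The text names with values the detected carcinogen activators, members past the threshold in any comparison, the 10 with the highest mean CPM, listed partners past the threshold, Ahr, Por and 3 P450-fold enzymes. Genes outside this rule are named as such or to complete a count. Members and lists were chosen with earlier results of these data known. Gene coordinates are those of the file with 1 base taken off the end; 61 starts and 52 ends of 103 members matched RefSeq.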

Additional observations from a re-analysis of the deposited data

Results flagged for a closer look

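Within a tissue, 9 of 34 sets of libraries examined held 1 library far from the rest by the cut-offs of Dixon's test. Those cut-offs assume normally distributed values, while CPM were used untransformed and the sets share libraries. How many flags would arise by chance is therefore not known. In the tumors these were Cyp1b1 in the ADC tumor of m378 (129 CPM), Cyp4f18 in the ADC tumor of m335 (16.7 CPM), Cyp2a4 and Cyp2s1 in the ADN tumor of m350 (3.53 and 103 CPM), Cyp2e1 in the ADN tumor of m368 (4.47 CPM), and, as the lowest of the 6, Cyp26b1 in the ADN tumor of m350 (2.75 CPM) and Cyp2j9 in the ADN tumor of m368 (0.419 CPM). In the normal lungs they were Cyp1a1 (159 CPM) and Cyp2f2 (1483 CPM), both in m372.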

How the results depend on the processing

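Over 22 alternatives, 719 refits of named members gave 560 with the same direction and side of the threshold, 141 that lost the call, 11 that gained it and 7 that changed sign. Cyp1a1, Cyp26b1, Cyp27a1, Cyp2b10, Cyp2d22, Cyp2e1 and Cyp4b1 kept their call in tumors under all 22. The sign changed for Cyp2a5 without the normal lung (0.30), the ADC tumor (0.31) or both libraries (0.30) of m372, and for Cyp4v3 with library totals (-0.04) and without either or both libraries of m372 (-0.01 each); both were uncalled, and leaving out 1 library or mouse gave -2.09 to 0.31 for Cyp2a5 and -0.01 to 0.43 for Cyp4v3. Without the replicate block, 2242 genes passed in tumors (1759 with it), 1779 in ADN (1142), 1546 in ADC (757) and 3 in ADC against ADN (0); P450 genes higher were 2, 1 and 2 in tumors, ADN and ADC. DESeq2 called 3286, 2931, 1858 and 125 genes in the 4 comparisons, with 2 P450 genes higher in each of the first 3 (Cyp1b1 and Cyp4a12b). With no filter on low counts, 2 P450 genes were higher in ADN (Cyp2c40 and Cyp2c69), 1 in ADC (Cyp2c40), and 5 genes differed between ADC and ADN. Leaving out 1 library or mouse gave 917 to 3377 genes in tumors, 0 to 1972 in ADN, 65 to 1067 in ADC and 0 to 2 in ADC against ADN. The P450 genes lower were then 7 to 10, 0 to 8 and 1 to 8, and those higher 0 to 1, 0 to 2 and 0 to 2, in tumors, ADN and ADC. The lowest counts came without the ADN tumor of m335 for ADN and without the normal lung of m378 for ADC. The cause of these shifts was not tested. With 59 members having counts but falling below the filter, changes in most of the superfamily were not tested in the main fit. Of these members 15 had over 20 counts, among them Cyp2c40, whose 1337 counts lay in too few libraries to pass.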
